A study of Rattus norvegicus with 17 samples.

Results

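Expression of 9 interferon-stimulated genes (Mx1, Mx2, Ifit1, Ifit2, Ifit3, Isg15, Irf7, Rsad2 and Usp18) was examined in the hippocampus of adolescent Long-Evans rats, out of 34322 genes counted. The genes were picked by name. Mx2 and Ifit1 were picked because of their differences between the ethanol-exposed rats and the control rats in these same libraries, so those differences are given as a description with no test. Dams received a liquid diet with 6.7% ethanol (ET), a liquid diet without ethanol in the amount eaten by the ethanol dams (PF), or chow ad libitum (AD) from gestational day 0 to 20. There were 5 ET rats (2 females and 3 males), 6 PF rats (3 females and 3 males) and 6 AD rats (3 females and 3 males), and 1 ET, 2 PF and 1 AD library came from the right hippocampus while the other 13 came from the left. All rats of a diet were littermates from 1 litter, so diet and litter cannot be told apart, and p-values measure the spread between littermates.

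Each library held between 10853947 and 17498392 counts, as averaged over 3 technical replicates, which limits the precision of genes at a low level. The study left out 1 library per diet (ET replicate 2, PF animal 11f6 and AD replicate 4), and its final comparisons used 14. Those 3 libraries were rich in choroid plexus transcripts: the summed normalized count of 10 choroid plexus markers was 98811, 113103 and 125680 in them, against at most 16401 in any of the other libraries. In 2 AD libraries the sex-linked genes went against the sex label. AD replicate 1, labelled male, had 0 normalized counts of the Y-linked gene Kdm5d, and AD replicate 2, labelled female, had 516. The comparison of the sexes therefore used ET and PF only. In every library, 8 hippocampal neuron markers summed to between 31335 and 44349 normalized counts. No other brain region was compared, so this does not measure the purity of the dissection.

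Interferons are secreted by cells that sense viral or misplaced nucleic acid. They bind receptors that signal through JAK kinases and STAT proteins, and the transcription factor complex ISGF3 then binds interferon-stimulated response elements in the promoters of target genes. Irf7 amplifies this response, Isg15 is a ubiquitin-like protein that is attached to other proteins, Usp18 removes it and dampens receptor signalling, and the Mx, Ifit and Rsad2 products act against viruses. In the brain, microglia, endothelium and neurons can all respond, and a low level of the response is present without infection.

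Promoter sequences of 4 of the 9 genes were taken from RefSeq (assembly GRCr8), each running from 250 bases before the transcription start to 50 bases after it. They are shown for the response element that 3 of the 4 hold and for its place relative to the start. The response element was searched on both strands as GAAA, any 2 bases and GAAA again, which reads TTTC, any 2 bases and TTTC on the other strand, and a match is in capitals. Irf7 lies at chr1:205799974-205800273 on the minus strand and held TTTCATTTTC 69 bases before the start. Ifit3 lies at chr1:241527076-241527375 on the plus strand and held TTTCAGTTTC 44 bases before the start. Rsad2 lies at chr6:48788071-48788370 on the minus strand and held TTTCATTTTC 147 bases before the start. Mx1 lies at chr11:50294557-50294856 on the minus strand and held no match to these letters in this window. Of all 33469 promoters of that length, 1312 (3.92%) held the motif.
Irf7: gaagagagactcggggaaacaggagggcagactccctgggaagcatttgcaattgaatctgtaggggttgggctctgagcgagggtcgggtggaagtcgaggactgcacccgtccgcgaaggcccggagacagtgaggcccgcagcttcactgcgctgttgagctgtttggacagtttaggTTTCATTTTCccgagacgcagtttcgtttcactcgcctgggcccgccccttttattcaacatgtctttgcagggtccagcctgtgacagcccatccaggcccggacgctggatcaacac
Ifit3: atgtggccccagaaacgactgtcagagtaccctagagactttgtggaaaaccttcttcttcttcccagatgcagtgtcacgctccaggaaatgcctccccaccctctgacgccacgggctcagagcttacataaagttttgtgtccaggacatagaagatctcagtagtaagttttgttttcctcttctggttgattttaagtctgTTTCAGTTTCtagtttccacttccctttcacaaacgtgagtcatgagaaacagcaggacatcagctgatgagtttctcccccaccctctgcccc
Rsad2: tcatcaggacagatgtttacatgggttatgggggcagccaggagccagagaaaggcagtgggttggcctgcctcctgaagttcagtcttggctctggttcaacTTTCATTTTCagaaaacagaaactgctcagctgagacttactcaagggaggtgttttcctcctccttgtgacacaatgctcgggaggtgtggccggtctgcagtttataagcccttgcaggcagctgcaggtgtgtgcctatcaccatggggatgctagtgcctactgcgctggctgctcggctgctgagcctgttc
Mx1: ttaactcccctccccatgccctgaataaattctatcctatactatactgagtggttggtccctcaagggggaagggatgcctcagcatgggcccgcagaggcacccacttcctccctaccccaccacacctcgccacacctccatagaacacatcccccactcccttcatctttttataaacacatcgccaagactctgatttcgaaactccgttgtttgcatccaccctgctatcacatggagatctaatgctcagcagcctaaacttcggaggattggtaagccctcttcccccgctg

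Mx2, which encodes a dynamin-like GTPase with antiviral activity, was lower in ET rats than in both control groups. Values are normalized counts, that is, counts scaled by the TMM method over the 17 libraries. In ET replicates 1 to 5, Mx2 was at 64.4, 102, 43.9, 71.0 and 59.6. In the 6 PF libraries it ran from 320 through a median of 502 to 593, and in the 6 AD libraries from 255 through a median of 327 to 424. Every ET library was below every PF and every AD library, also when the 3 left-out libraries were counted, while PF and AD overlapped. Over the 14 final libraries the means were 59.7 ± 11.6 in ET (SD, n = 4), 477 ± 105 in PF (SD, n = 5) and 352 ± 57.4 in AD (SD, n = 5).

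In the fit over all genes, the log2 fold change of Mx2 was -3.00 (SE 0.20) in ET against PF, and -2.56 (SE 0.16) in ET against AD. A gene was called when its adjusted p-value was below 0.01 and its absolute log2 fold change was above 1.5. Of all tested genes, 2.13% were called lower in ET than in PF and 0.0127% (2 of 15749) were called lower in ET than in AD. Over all tested genes, 4.18% had every ET library below every PF library and 0.229% had every ET library below every AD library. These shares are given as background only, since Mx2 was picked on these contrasts and nothing is read from its own place among them. Both comparisons share the ET libraries.

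Between the control groups, Mx2 was 0.44 higher in PF than in AD on the log2 scale (SE 0.16, adjusted p = 0.16, edgeR quasi-likelihood test), which did not pass the threshold. In whole tissue, fewer cells expressing a gene and less RNA of it per cell cannot be told apart. The summed level of 8 microglial markers overlapped between diets in the final libraries and was between 3198 and 4206 normalized counts over all 17. No marker was called in any diet comparison. Their smallest adjusted p (edgeR) was 0.00011 in PF against AD, at a log2 fold change under the threshold, and 0.011 in ET against PF. In each of these comparisons, 3 of 8 had an unadjusted p below 0.05, 1 lower and 2 higher, as did 16.4% and 11.9% of all genes. Over all 17 libraries, the 7 red cell markers summed to between 9123 and 16658 in ET, 3981 and 12268 in PF, and 6941 and 13287 in AD, and the 11 lymphocyte markers to between 168 and 274 in ET, 122 and 183 in PF, and 137 and 290 in AD. In the 14 final libraries, the red cell sum was between 3981 and 8929 in PF. This was below every ET library (9123 to 12544) and every AD library (9231 to 13287). The lymphocyte sum was between 122 and 183 in PF, below every AD library (190 to 290), while ET (168 to 217) overlapped both. Only 2 of the 11 lymphocyte markers were high enough to be tested in each diet comparison, so this sum rests on few well-counted genes. In these 14 libraries, the medians of the red cell sums (10342 in ET, 5919 in PF and 11334 in AD) and of the lymphocyte sums (185, 155 and 232) were lowest in PF, whereas Mx2 was lowest in ET, and their part in the Mx2 difference was not tested.

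**Figure D1:**
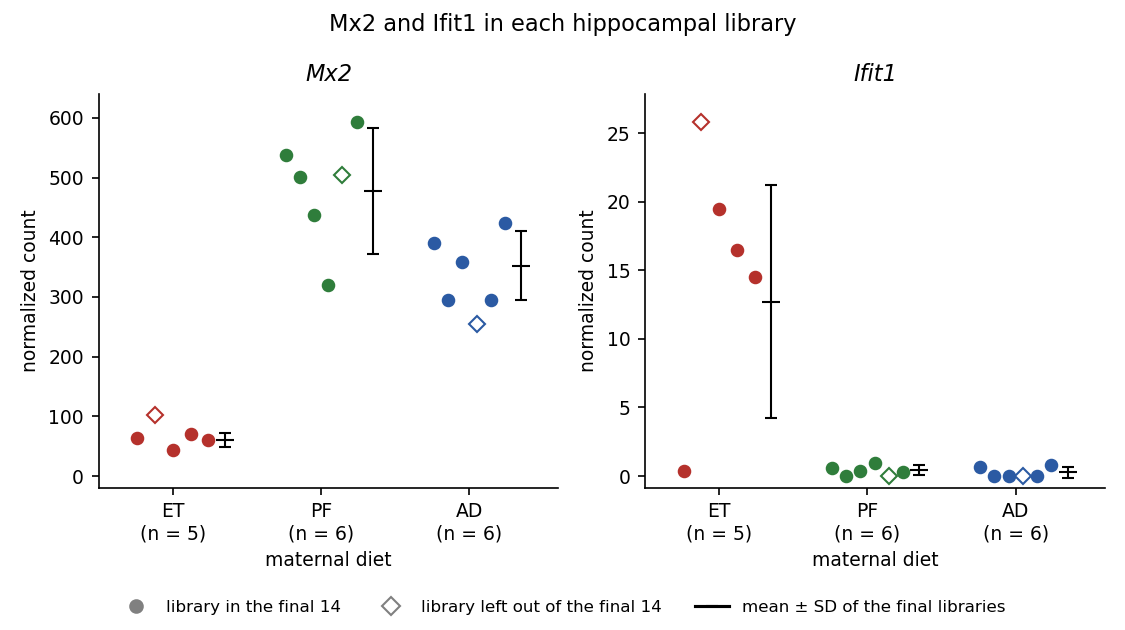
Normalized counts (y axis, linear) of Mx2 and Ifit1 by maternal diet (x axis), 1 point per library, with filled circles for the 14 final libraries, open diamonds for the 3 left out and black bars for the mean ± SD of the final libraries. The 5 ET libraries sit between 43.9 and 102 for Mx2, below all 12 control libraries, and 4 of 5 ET libraries stand above the control libraries for Ifit1.

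Mx1, which encodes the related GTPase and lies near Mx2 in the GRCr8 annotation with Fam3b between them, had no such pattern. It was at 20.6, 40.4, 24.1, 30.0 and 18.4 normalized counts in ET replicates 1 to 5. It ran from 6.95 through 15.4 to 53.6 in PF and from 7.55 through 25.5 to 138 in AD, so all 3 diets overlapped. The log2 fold change was 0.17 (SE 0.52, adjusted p = 0.97, edgeR) in ET against PF, 0.09 in ET against AD and -0.07 in PF against AD. Its standard error was the largest of the 8 members tested in that comparison, and the sign of its differences changed when single libraries were left out. In ET against PF the value ran from -0.05 (without PF replicate 6) to 0.92 (without PF replicate 1, SE 0.31, adjusted p = 0.24, edgeR).

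The libraries rich in choroid plexus were among the highest for Mx1. The highest ET library was the left-out ET replicate 2 at 40.4, the highest AD library was the left-out AD replicate 4 at 138, and the left-out PF animal 11f6 at 41.9 was second among PF. The highest PF library was PF replicate 1 at 53.6, whose choroid plexus markers summed to only 844. The part of the choroid plexus in the Mx1 level was not tested. Over the 14 final libraries, the means were 23.3 ± 5.1 in ET (SD, n = 4), 20.3 ± 19.3 in PF (SD, n = 5) and 21.9 ± 12.3 in AD (SD, n = 5).

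Ifit1, an RNA-binding protein that blocks translation of viral transcripts, was above the floor of detection in ET libraries alone. It was at 0.34, 25.8, 19.5, 16.5 and 14.5 normalized counts in ET replicates 1 to 5. In PF the 6 libraries ran from 0 through 0.34 to 0.97, and in AD from 0 through 0 to 0.77. All 12 control libraries were at or under 3 counts, the floor below which a gene was treated as not detected, and so was ET replicate 1. The remaining 4 ET libraries, 3 males and 1 female, were above every control library. ET replicate 1, a female, had a summed choroid plexus level of 15323, above the other 3 final ET libraries (966 to 2246), and the lowest hippocampal neuron sum of the 17 libraries. The left-out ET replicate 2, with the highest choroid plexus sum of ET (98811), had the highest Ifit1 (25.8).

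Since both control groups were at the floor, a fold change can only be bounded. The mean count of the 5 ET libraries was 15.0, at least 5-fold higher than 3 counts per library, and that of the 4 final ET libraries was 13.4, at least 4.47-fold higher. These bounds cover counting error only, as the reads carried no molecular identifiers. Ifit1 did not pass the filter on low counts in the final diet comparisons and was not tested there. Over the whole table, Ifit1 was the 1 gene that was at or under 3 counts in all 12 control libraries and above 10 counts in 3 or more ET libraries. This condition was set after the values of Ifit1 were seen.

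In the GRCr8 annotation, Ifit1 overlaps Ifit1bl, a close relative of it, and the study let reads count for more than 1 feature. The values of both may therefore hold shared reads, and the authors' assembly (mRatBN7.2) may place them differently. Ifit1bl was at 18.5, 28.6, 21.6, 28.7 and 22.6 normalized counts in ET replicates 1 to 5, and ran from 33.1 through 35.9 to 36.4 in PF and from 21.4 through 30.2 to 36.0 in AD. Every ET library was below every PF library, which held for 4.18% of all genes, and ET and AD overlapped. Its log2 fold change was -0.61 (SE 0.14, adjusted p = 0.035, edgeR) in ET against PF, which did not pass the threshold, and -0.41 (SE 0.16, adjusted p = 1) in ET against AD. In the 4 ET libraries with Ifit1, Ifit1bl (21.6 to 28.7) was below every PF library and inside the AD range. ET replicate 1, at the floor for Ifit1, had the lowest Ifit1bl of ET (18.5). Whether these genes share reads was not tested.

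Ifit2 and Ifit3, which neighbour each other and encode further members of this protein family, did not differ between diets beyond the spread of the libraries. Ifit2 was at 92.4, 111, 79.2, 103 and 72.5 normalized counts in ET replicates 1 to 5, ran from 89.4 through 99.3 to 117 in PF and from 89.6 through 102 to 110 in AD. Among the members tested it had the smallest standard error, and its log2 fold change was -0.24 (SE 0.12, adjusted p = 0.51, edgeR) in ET against PF, -0.20 (adjusted p = 1) in ET against AD and 0.04 (adjusted p = 0.86) in PF against AD. Ifit3 was at 11.1, 11.3, 6.09, 11.3 and 7.41 in ET, ran from 7.97 through 10.7 to 17.1 in PF and from 7.78 through 11.5 to 20.0 in AD. Its log2 fold change was -0.28 (SE 0.27, adjusted p = 0.84, edgeR) in ET against PF and -0.49 (adjusted p = 1) in ET against AD. With single libraries left out, and where it was tested, the first ran from -0.41 (without ET replicate 4) to -0.14 (without ET replicate 3). The second ran from -0.62 (without ET replicate 4) to -0.31 (without AD replicate 6). All 3 diets overlapped for both genes.

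Isg15 and Usp18, the modifier and the protease that removes it, likewise overlapped between all diets. Isg15 was at 22.9, 31.9, 16.2, 28.4 and 20.3 normalized counts in ET replicates 1 to 5, ran from 10.7 through 21.6 to 23.8 in PF and from 17.4 through 21.8 to 37.1 in AD. Its log2 fold change was 0.17 (SE 0.23, adjusted p = 0.91, edgeR) in ET against PF and -0.22 (adjusted p = 1) in ET against AD. The first was 0.02 without PF replicate 3 and 0.03 without ET replicate 4, and the second was -0.05 without AD replicate 1. Usp18 was at 16.2, 25.8, 18.9, 25.2 and 16.8 in ET, ran from 8.66 through 15.2 to 23.8 in PF and from 14.1 through 19.3 to 42.4 in AD. Its log2 fold change was 0.45 (SE 0.21, adjusted p = 0.45, edgeR) in ET against PF, -0.29 (adjusted p = 1) in ET against AD and -0.73 (SE 0.31, adjusted p = 0.26) in PF against AD. Without AD replicate 6 the last 2 were 0.01 and -0.43. Neither gene passed the threshold in any diet comparison.

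Irf7, the transcription factor of the group, was at 31.7, 47.6, 36.6, 44.6 and 33.8 normalized counts in ET replicates 1 to 5, and ran from 28.6 through 37.0 to 48.0 in PF. In AD it ran from 28.4 through 38.4 to 108, where the highest value belonged to AD replicate 6 and the next was 56.5. The log2 fold change was -0.08 (SE 0.18, adjusted p = 0.96, edgeR) in ET against PF, -0.52 (adjusted p = 1) in ET against AD and -0.44 (adjusted p = 0.59) in PF against AD. Without AD replicate 6 the last 2 were -0.10 and -0.02. AD replicate 6 was also the highest AD library for Usp18 (42.4) and Ifit3 (20.0), and its summed endothelial and microglial markers were the highest of the AD libraries at 5011 and 3888. The part of these cells in its values was not tested.

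Rsad2, which encodes the antiviral enzyme viperin, had the largest log2 fold change in ET against PF of the members tested other than Mx2. Usp18 leaned the same way at 0.45 (SE 0.21, unadjusted p = 0.059, edgeR). Rsad2 was at 43.2, 70.2, 57.3, 64.2 and 55.7 normalized counts in ET replicates 1 to 5. It ran from 24.3 through 37.8 to 45.0 in PF and from 34.1 through 48.5 to 62.5 in AD. Of the 5 ET libraries, 4 were above all 6 PF libraries, and 1 overlapped them. The log2 fold change was 0.66 (SE 0.19) in ET against PF, with an unadjusted p = 0.0062 and an adjusted p = 0.12 (edgeR), and did not pass the threshold. Over 18 alternative settings its adjusted p ran from 0.026 to 0.28. In ET against AD the log2 fold change was 0.16 (adjusted p = 1), and in PF against AD it was -0.50 (adjusted p = 0.23, edgeR). ET thus lay nearer to AD than to PF on this scale. With single libraries left out, the value in ET against AD ran from 0.04 (without AD replicate 2) to 0.25 (without ET replicate 1). Rsad2 was lowest in PF, and in the final libraries the red cell marker sum of every PF library lay below those of all ET and AD libraries, with the lymphocyte sum of every PF library below those of all AD libraries. The part of these cells in the Rsad2 level was not tested.

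**Figure D2:**
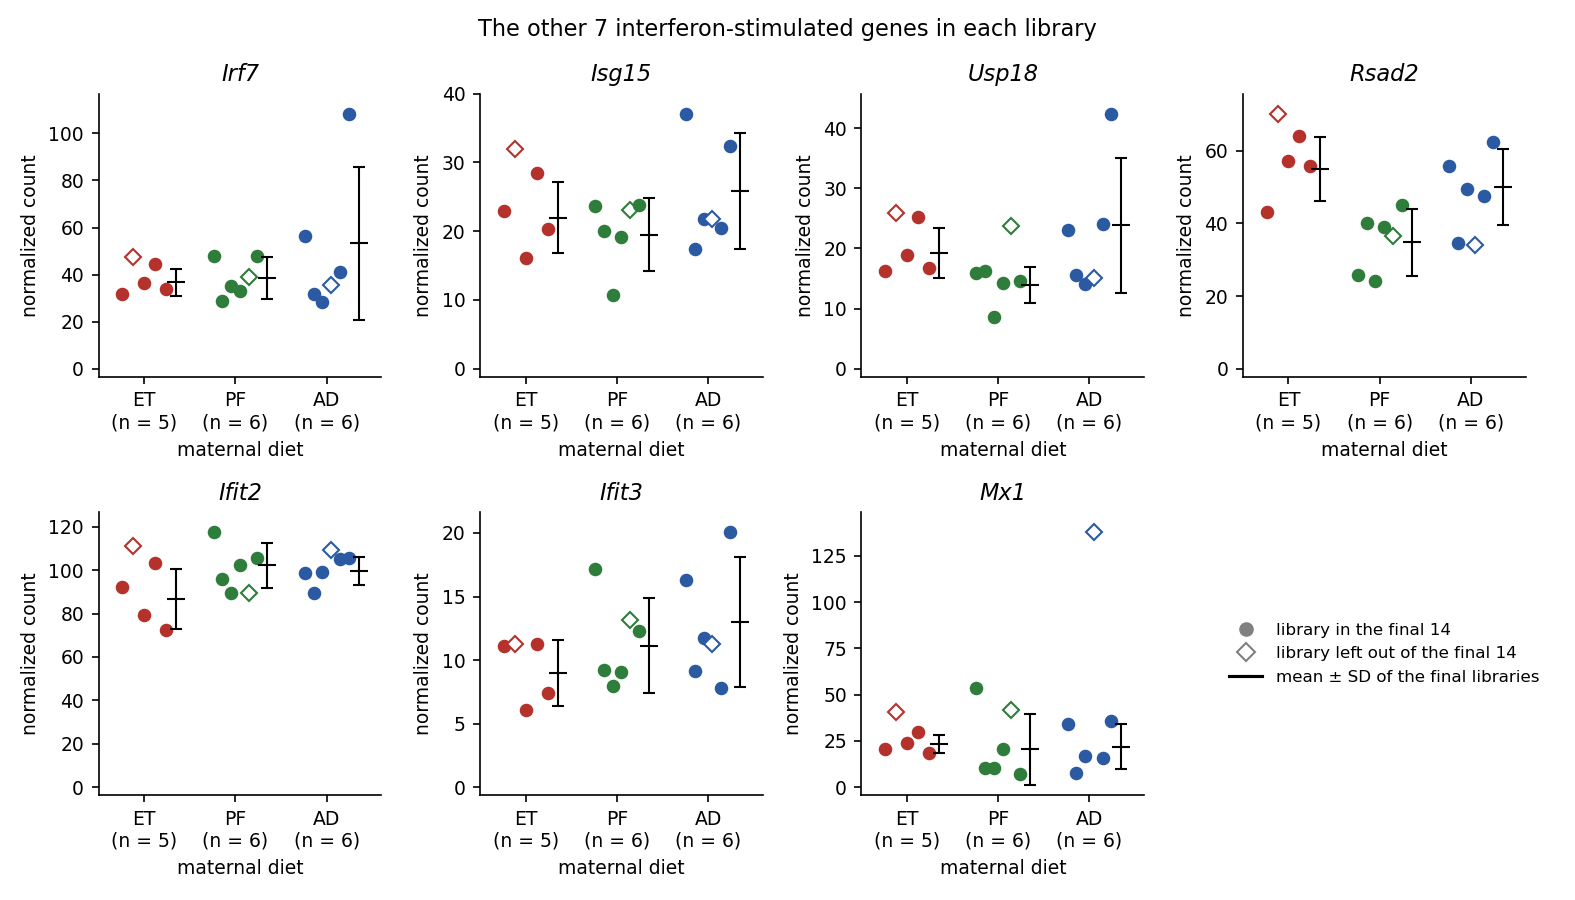
Normalized counts (y axis, linear, a scale per panel) of Irf7, Isg15, Usp18, Rsad2, Ifit2, Ifit3 and Mx1 by maternal diet (x axis), 1 point per library, with filled circles for final libraries, open diamonds for left-out libraries and black bars for the mean ± SD of the final libraries. The 3 diets overlap in every panel, and single AD libraries stand high for Irf7 (108), Usp18 (42.4) and Mx1 (138).

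Of the 7 members other than Mx2 and Ifit1, 0 were called in any of the 3 diet comparisons by edgeR or by DESeq2. At an unadjusted p below 0.05, Rsad2 was the 1 of these 7 in ET against PF, where 11.9% of all genes were below it, and 0 of the 7 in ET against AD, where 2.74% were. Over all genes, 0.0373% were called higher in ET than in PF and 0 higher in ET than in AD. In PF against AD, 2.02% of genes were called higher and 0.0251% lower in PF, and 0 of the 8 members tested were called, by edgeR or by DESeq2, while 3 of the 8 had an unadjusted p below 0.05, as did 16.4% of all genes. Of those 8, 6 had a negative log2 fold change in PF against AD, and the exceptions were Mx2 and Ifit2. Without AD replicate 6, 5 of the 8 were negative, Mx1 was at 0.17, and Irf7 and Ifit3 were both at -0.02. The red cell and lymphocyte marker sums of every final PF library were below those of every final AD library, and their part in these differences was not tested. The median log2 fold change of the 8 members was 0.04 in ET against PF, -0.26 in ET against AD and -0.29 in PF against AD. That of all genes was within 0.01 of 0 in each. The 8 include Mx2, which was picked on the ET contrasts, so the ET medians are a description and nothing is read from them. With single libraries left out, the members' median ran from -0.09 to 0.24 in ET against PF, where 7 or 8 members were tested. It ran from -0.40 (without ET replicate 4) to -0.12 (without AD replicate 6) in ET against AD, and from -0.44 (without PF replicate 1) to -0.02 (without AD replicate 6) in PF against AD.

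**Figure D3:**
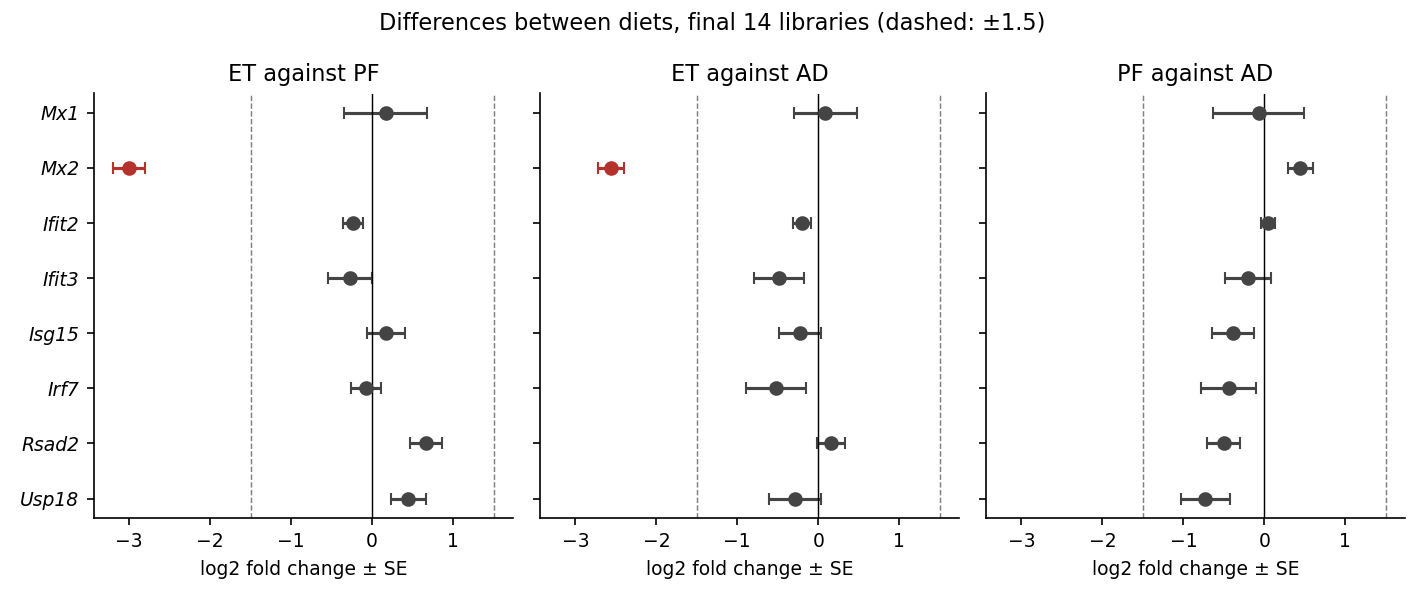
Log2 fold change ± SE (x axis) of the 8 members that passed the filter on low counts (y axis) in the 3 diet comparisons of the 14 final libraries, with red points for Mx2 in the comparisons on which it was picked and dashed lines at a log2 fold change of 1.5 in either direction. Mx2 lies at -3.00 and -2.56 in the ET comparisons, given as a description, and the other 7 lie between -0.73 and 0.66 in all 3.

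Sex and hemisphere were compared next, since neither was used to pick the genes. In ET and PF rats of the final set, with diet as a covariate, 0 of the 8 members other than Ifit1 were called between males and females (all adjusted p = 1, edgeR, with 0 of 8 at an unadjusted p below 0.05, and 0 by DESeq2). Over all genes, 0.0243% were called higher in males and 0.00607% higher in females. The log2 difference, males minus females, was 0.01 (SE 0.20) for Mx2 and 0.35 (SE 0.17, unadjusted p = 0.066) for Rsad2. Ifit1 is not counted here, since it was at the floor in all PF libraries and entered the fit through ET alone, where 1 of 2 females was also at the floor.

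The difference between ET and PF was not shown to depend on sex for the 8 members other than Ifit1 (interaction, all adjusted p = 1, 0 of 8 at an unadjusted p below 0.05, edgeR, and 0 by DESeq2), and 0% of all genes had an interaction. For Mx2 the interaction was 0.38 (SE 0.42) on the log2 scale, and for Rsad2 it was -0.23 (SE 0.35). For Ifit1 the SE was 18.6, so its interaction could not be assessed. Between right and left hippocampus, 0 of the 8 members tested differed (all adjusted p = 1, 0 at an unadjusted p below 0.05, edgeR), and 0% of all genes were called in either direction. Mx2 was 0.27 higher in the right hippocampus on the log2 scale (SE 0.16), from 3 right libraries, 2 of them PF.

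Variation within diets was described next. After the mean of each diet was subtracted from log2(normalized count + 1), the 36 pairs of the 9 members had Pearson correlations between -0.10 and 0.84 over 17 libraries, with a median of 0.45. These are descriptions with no test, since the 17 points share libraries, depth and litter. The closest pair was Isg15 and Ifit3 (r = 0.84, Spearman's rho = 0.88), which was r = 0.85 without the 2 libraries farthest from the median of the x measure. Irf7 and Usp18 had r = 0.76, and 0.60 without AD replicate 6. Ifit3 and Rsad2 had r = 0.29, and 0.15 without AD replicate 6.

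Mx2 had a correlation of 0.71 with Ifit3, 0.70 with Isg15, 0.54 with Irf7, 0.48 with Usp18 and 0.45 with Rsad2 after subtraction of the diet means. Over the 14 final libraries, the last 2 were 0.39 and 0.30. Ifit2 had correlations from 0.19 with Rsad2 to 0.58 with Isg15 among Isg15, Ifit3, Irf7, Usp18 and Rsad2. Ifit1 had correlations between 0.01 and 0.45 with the other 8 members, and Mx1 between -0.10 and 0.48. Nothing is read from those of Ifit1, which was at the floor in every control library and in ET replicate 1. They are also among the pairs summarized above. Mx2 and Mx1 had r = 0.02. The 3 promoters with the response element printed above belong to Irf7, Ifit3 and Rsad2, whose pairs had r = 0.69 (Irf7 and Ifit3), 0.49 (Irf7 and Rsad2) and 0.29 (Ifit3 and Rsad2), and the pairs of Mx1 with them had 0.29, 0.48 and -0.10 in the order Irf7, Ifit3 and Rsad2. Over the 14 final libraries, these pairs of Mx1 had 0.52, 0.63 and 0.06.

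**Figure D4:**
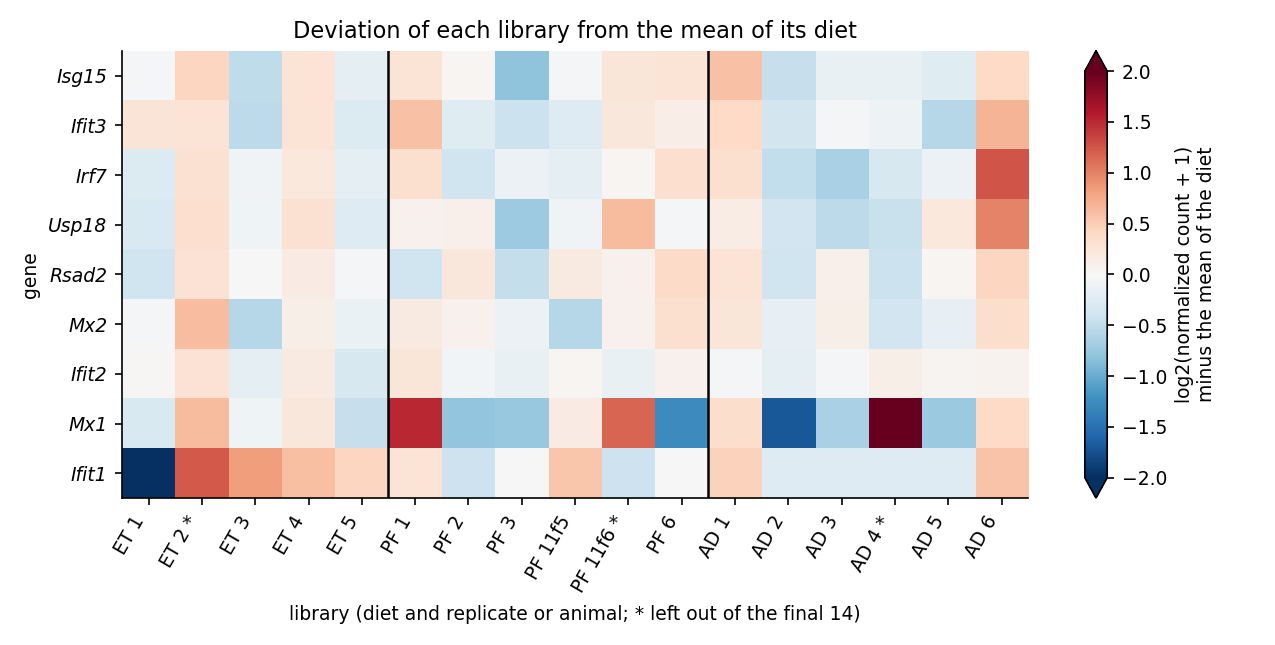
Difference of log2(normalized count + 1) of each of the 9 genes (y axis) from the mean of its diet (colour, red above and blue below) in each of 17 libraries (x axis, black lines between diets, asterisks on left-out libraries). All 9 genes are above their mean in AD replicate 6 and below it in AD replicate 2, but Ifit1 was at the floor in both libraries. Mx1 is far above its mean in AD replicate 4 and Ifit1 far below in ET replicate 1.

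The genes whose levels over the 17 libraries were most like those of Mx2, out of 15920 with a mean of at least 10 normalized counts, were Akr1b10 (r = 0.92), Rab2b (r = 0.88) and Serinc2 (r = 0.86). Akr1b10, an aldo-keto reductase, was at 109 ± 17.0 in ET (SD, n = 5), 418 ± 139 in PF and 385 ± 38.9 in AD (SD, n = 6 each), over all libraries. For Ifit1 they were Bub1 (r = 0.80), Adgrg6 (r = 0.79) and Slc39a12 (r = 0.78). With the diet means subtracted, the most like Mx2 were Ltbp1 (r = 0.88), Ell3 (r = 0.88) and Nmnat3 (r = 0.87), and the most like Ifit1 were Arhgap31 (r = 0.88), Ddr2 (r = 0.85) and Slc7a2 (r = 0.85). Ifit1 was at 1 count or less in every PF and AD library and in ET replicate 1, whose deviation from its diet mean was -3.10 on the log2 scale, against at most 1.22 in size in any other library. These correlations were not computed without that library.

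Among the other members, a further gene of the 9 was among the 3 closest genes within diets for Isg15 and Ifit3, each for the other. Ifit3 was closest to Ctss (r = 0.89), the microglial protease cathepsin S, and Irf7 to Ece1 (r = 0.91), which encodes endothelin-converting enzyme. For Mx1 over the 17 libraries the list was Lrp5 (r = 0.82), Gas2l2 (r = 0.82) and Rsph1 (r = 0.79), of which Rsph1 encodes a part of motile cilia. These correlations were the highest of 15920 genes and carry no test.

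The rest of the interferon pathway was examined from lists of named genes. Interferon genes themselves were nearly undetected: 9 of 11 listed ligands were in the table, Ifnb1, Ifng, Ifna2, Ifna5, Ifnl1 and Ifnl3 were at 0 in all 17 libraries, and the highest count was 2.67, for Ifna1. None reached the filter on low counts, so no ligand was tested. A count of 0 was treated as lying under the floor of 3 counts per library, not as absence. Of the receptors and JAK-STAT genes, 17 of 17 were tested and 0 were called in any diet comparison. The most abundant were Jak1, the kinase bound to the type I receptor, at 3215 ± 409 in ET, 3234 ± 202 in PF and 3071 ± 195 in AD (SD, n = 4, 5 and 5), Ifnar1, a chain of that receptor, at 1422 ± 56.3, 1446 ± 71.8 and 1464 ± 37.9, and Ifngr2, a chain of the interferon gamma receptor, at 628 ± 54.6, 600 ± 58.7 and 594 ± 34.6.

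Ifnlr1, the receptor chain for lambda interferons, had the largest difference of the pathway genes in ET against PF and in PF against AD. It was at 13.8 ± 2.6 in ET (SD, n = 4), 7.56 ± 2.7 in PF (SD, n = 5) and 17.8 ± 3.0 in AD (SD, n = 5). The log2 fold change was 0.84 (SE 0.25, adjusted p = 0.13, edgeR) in ET against PF and -1.21 (SE 0.22, adjusted p = 0.0044, edgeR) in PF against AD, where the log2 fold change was below the threshold of 1.5. Under the alternative threshold of a fold change above 1.5, Ifnlr1 would be called lower in PF than in AD. The red cell and lymphocyte marker sums were also lower in every final PF library than in every final AD library, and their part in the Ifnlr1 level was not tested. Stat2, a subunit of ISGF3, had 0.22 (adjusted p = 0.35) and Irf3, a transcription factor upstream of interferon, had -0.14 (adjusted p = 0.77) in ET against PF. The list's median log2 fold change was 0.00 in ET against PF, against 0.01 for all genes.

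Nucleic acid sensing and the remaining effectors gave 0 calls in any diet comparison. Of 15 sensing genes in the table, 12 were tested, with the adaptors and kinases Traf3, Tbk1 and Mavs the most abundant and Ikbke (-0.36), Dhx58 (0.25) and Sting1 (-0.22) the largest log2 fold changes in ET against PF. Of 55 other effectors, 42 were tested in ET against PF, with B2m, Adar and Znfx1 the most abundant. The largest differences there were those of Ifit1bl (-0.61), Ifi47, an immunity-related GTPase (-0.60, SE 0.17, adjusted p = 0.11, edgeR), and Isg20, an exonuclease (-0.52, SE 0.20, adjusted p = 0.46, edgeR), which were in the same direction as Mx2. Of these 42 genes, 16 had a log2 fold change below 0, the median was 0.06, and 3 of 42 had an unadjusted p below 0.05, as did 11.9% of all genes.

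Of the ISG15 conjugation genes and negative regulators, 10 were in the table, 9 were tested and 0 were called. The most abundant were Pias1, Ptpn1 and Ifrd1, and the largest log2 fold changes in ET against PF were 0.15 for Ube2l6, the conjugating enzyme for Isg15, 0.13 for Socs3 and 0.09 for Ptpn6. Over the 79 pathway genes tested in ET against PF, 74 were within 0.5 of 0 on the log2 scale, and the range was -0.61 to 0.84. In ET against AD, 79 of 80 were within 0.5, and in PF against AD 74 of 79. DESeq2 called 0 of these genes in each comparison. In ET against PF, an unadjusted p below 0.05 (edgeR) was reached by 2 receptor and JAK-STAT genes, 0 sensing genes, 3 effectors and 0 conjugation genes or regulators.

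**Figure D5:**
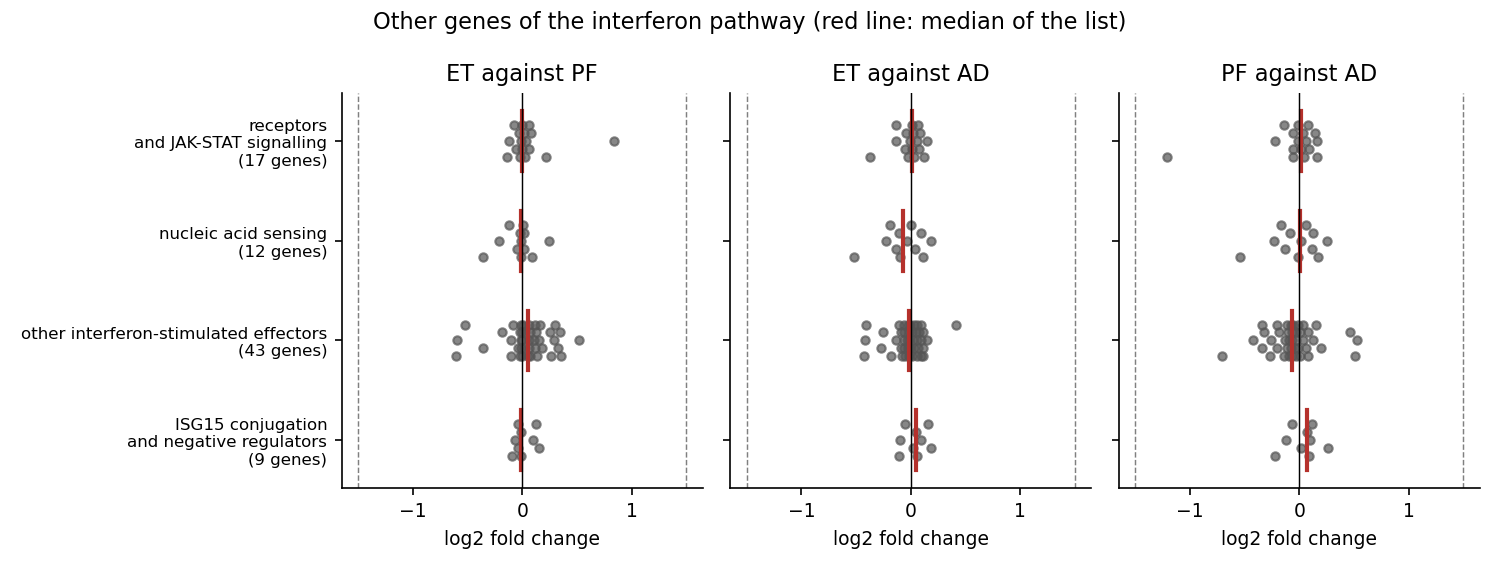
Log2 fold change (x axis) of each tested gene (points) in 4 lists of interferon pathway genes (y axis, with the number of genes) in the 3 diet comparisons, with a red line at the median of each list and dashed lines at a log2 fold change of 1.5 in either direction. All points lie inside the dashed lines, and the farthest is Ifnlr1 at -1.21 in PF against AD.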

How the data were processed

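Count tables of 17 hippocampal RNA libraries were analysed. The authors mapped paired reads to mRatBN7.2 with Bowtie2 2.4.2 and counted fragments on exons with featureCounts 2.0.1, allowing reads to count for more than 1 feature. The deposited table holds expected counts, which the authors made by averaging fragment counts per gene over 3 technical replicates, with no normalization, and 53.3% of its values were whole. All columns of the table were used (0 left unused). Averages were rounded to whole numbers, low genes were removed with filterByExpr, and libraries were scaled by TMM and compared 2 diets at a time in edgeR 4.0.16 (R 4.3.3, quasi-likelihood test), on the study's final 14 libraries. P-values were adjusted by Benjamini-Hochberg over all genes tested, and genes were called at an adjusted p below 0.01 when the log2 fold change also exceeded 1.5 in size. The SE is the absolute log2 fold change divided by the square root of F. The steps were tested on simulated data.

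The genes, gene lists and comparisons were chosen with earlier results of these data known. The genes named are the 9 members, pathway genes past the threshold in any fit, the 3 most abundant and the 3 with the largest log2 fold change between ET and PF in each pathway list, and the 3 genes most like a member. Ifit1bl and Akr1b10 also bear on Ifit1 and Mx2. Alternatives were DESeq2 1.42.0, median-of-ratios scaling, no filter on low counts, sums of technical replicates, a fold change above 1.5, sex as a covariate, 1 fit of the 3 diets, the replicate number as a block, all 17 libraries and leaving out each library, and, chosen after seeing the data, leaving out the 2 AD libraries whose sex-linked genes go against their label. Animals 11f5 and 11f6 carry the diet of their column but no replicate number. Of 40 pairs of libraries of a diet, none agreed within sampling noise (smallest chi-square per gene 3.04).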

Additional observations from a re-analysis of the deposited data

Results flagged for a closer look

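Each of the 9 genes was examined for a library far from the other libraries of its diet, in 27 groups of 5 or 6 libraries. In 4 groups a library stood apart by Dixon's criterion, and chance alone flags about 1 group in 20. Mx1 was at 138 normalized counts in AD replicate 4, the highest of 6 AD libraries. That library was left out of the final set, and its choroid plexus markers summed to 125680 normalized counts. Irf7 was at 108 and Usp18 at 42.4 normalized counts in AD replicate 6, in both cases the highest of 6 AD libraries, and this library also had the highest endothelial (5011) and microglial (3888) marker sums of AD. Isg15 was at 10.7 normalized counts in PF replicate 3, the lowest of 6 PF libraries. The part of other cells in these values was not tested.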

How the results depend on the processing

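Mx2 kept its direction under every alternative run. Its log2 fold change ran from -3.18 to -2.83 in ET against PF, from -2.65 to -2.31 in ET against AD and from 0.36 to 0.56 in PF against AD. Of 524 values of the members under the alternatives, 500 kept their direction and 24 changed sign, and none of those 24 had passed the threshold. The 524 include those at a fold change above 1.5, a setting that moves only the threshold and repeats the main values. The values that changed sign were, in ET against PF, Mx1 with the replicate block (-0.37) and over single libraries left out (-0.051 to 0.92), and Irf7 over single libraries left out (-0.18 to 0.013). In ET against AD they were Mx1 with all 17 libraries (-0.63), with the replicate block (-0.064) and over single libraries left out (-0.16 to 0.32), and Usp18 over single libraries left out (-0.44 to 0.014). In PF against AD they were Ifit2 with all 17 libraries (-0.016), without the 2 AD libraries against their sex label (-0.011) and over single libraries left out (-0.011 to 0.086), and Mx1 over single libraries left out (-0.83 to 0.17). With all libraries of ET and PF, the sex difference became 0.043 for Ifit3 and 0.10 for Mx1, and the interaction 0.18 for Ifit2 and -0.058 for Usp18. With all 17, the difference between right and left became 0.10 for Irf7. The cause was not tested.

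Counts over all genes moved as follows. Genes lower in ET than in PF numbered 343, and 194 with the replicate block. Genes higher in ET than in PF numbered 6, but 17 at a fold change above 1.5, 10 with summed technical replicates, 3 with sex as a covariate, 3 with the replicate block, and 2 to 6 over single libraries left out (2 without ET replicate 4). Genes lower in ET than in AD numbered 2, and 0 with the replicate block, where fewer libraries entered and Mx2 had a log2 fold change of -2.63 (174 genes had an unadjusted p below 0.05 in this direction). Genes higher in ET than in AD numbered 0, and 0 to 1 over single libraries left out. The 1 gene was Ifit1, which passed the filter on low counts through ET alone when ET replicate 1 was left out. Ifit1 was picked on this contrast and this setting drops the ET library at its floor, so nothing is read from it. Genes lower in PF than in AD numbered 4, but 18 at a fold change above 1.5, 8 without the filter and 8 with summed replicates, and genes higher numbered 323, and 485 without the filter. Genes higher in females numbered 1, and 2 by DESeq2.

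The replicate numbers do not pair the samples. Same-numbered libraries had correlated deviations between -0.22 and 0.59, and the numbers join different animals. With the replicate block, Mx2 in PF against AD had a log2 fold change of 0.50 (adjusted p = 0.0195, edgeR), still not called. Depth limits Ifit1, which was at or under 3 counts in 13 of 17 libraries.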
